A study of Mus musculus with 56 samples.

Results

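Excitation-contraction coupling turns the action potential of a muscle fibre into calcium release, and 9 genes of this machinery are described here across every group of the series. Cacna1s, Cacnb1 and Stac3 belong to the voltage sensor, Ryr1 and Trdn to the release unit, Jph1 and Jph2 to the membrane junction, and Scn4a and Clcn1 to the excitable surface membrane. The genes were taken by symbol from the deposited table of raw counts, which holds 57010 genes, and all 9 were found and passed the filter on low counts in each comparison. Gastrocnemius, a calf muscle rich in fast fibres, came from mice of 20 to 22 weeks. Every mouse expressed the ribosomal protein L10A fused to GFP after Cre recombination, with Cre driven by the Mlc1f promoter, a myosin light chain promoter of fast skeletal muscle. In knockout mice Elavl1, the gene of the RNA-binding protein HuR, was floxed as well, and in control mice it was not. The 8 groups of 7 libraries were female knockout, female control, male knockout and male control, each as RNA isolated through the tagged ribosomes, called ribosome-bound or ribosomal here, and as total RNA of the whole muscle, and 1 library of each kind came from each of 28 mice.

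The action potential runs along the fibre surface and into the transverse tubules, where the voltage sensor sits opposite the calcium release channel of the sarcoplasmic reticulum. Tubule and reticulum meet in the triad, and in skeletal muscle the sensor opens the release channel through protein contact and not through calcium entry. Junctophilins hold the membranes together, triadin keeps the calcium-binding protein calsequestrin near the release channel, and sodium and chloride channels start and damp the electrical signal. HuR is known to bind AU-rich and U-rich stretches of messenger RNA, often in the 3′ untranslated region.

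Ribosomal libraries held 160313 to 3579221 gene counts (median 1624368) and total libraries 2427655 to 5848058 (median 3558302). Levels are CPM, counts scaled to a common library size over all 56 libraries, while fold changes come from fits to the counts. A gene was called where its p, adjusted over all genes tested, was under 0.05, and intervals span 1.96 SE on each side. The libraries are tags of 3′ ends, close to 1 read for each transcript, so no division by length was made and levels of different genes are not ranked against each other. Elavl1 itself did not pass the test in any of the 4 knockout comparisons, with log2 fold changes of 0.27 and 0.29 in female and male ribosome-bound RNA and -0.01 and -0.14 in female and male total RNA. Its tags lie at the 3′ end, and the floxed exon is not given in the sources used here, so this count does not check the deletion. Fast fibre markers summed to 24890 to 201800 CPM in every library, and all 8 were detected in every group. Heart markers summed to at most 8.33 CPM, and of the 5, Nppb, Nppa and Myl7 had at most 1 count in any group.

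Some libraries stood apart. A set of 5 total libraries had over 19% of counted reads outside genes, namely female knockout 9, female control 14 and male controls 25, 26 and 27, and no male knockout was among them. In those 5 libraries Ryr1 was at 843 to 1420 CPM and Trdn at 2878 to 4576 CPM, above the highest of the other 23 total libraries (789 CPM for Ryr1 and 2814 CPM for Trdn). Clcn1, Jph1 and Jph2 were above all other total libraries in 4 of the 5, Cacna1s, Cacnb1 and Scn4a in 3, and Stac3 in 0. A set of 7 ribosomal libraries had under 750000 counts (female knockouts 2, 6 and 12, male knockout 2, female controls 18 and 19, and male control 20). Trdn was higher in 6 of these 7 and Ryr1 in 5 than in any of the other 21 ribosomal libraries. With these 7 left out, ribosomal female knockouts held 936900 to 1207021 counts and female controls 1516216 to 3058801, without overlap. Depth and genotype therefore cannot be told apart in female ribosomal values given without them. With all libraries kept, female knockouts held 491405 to 1207021 counts. Female controls 18 and 19 held 575174 and 422756, and the rest 1516216 to 3058801. Among these controls Jph2 and Scn4a were lowest in 15, with most counts (796 and 22.6 CPM), and highest in 19, with fewest (1671 and 97.3 CPM). Clcn1 was lowest in 19 (93.1 CPM). The part of depth in female calls from all libraries, and in the sex differences, was not tested.

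**Figure D1:**
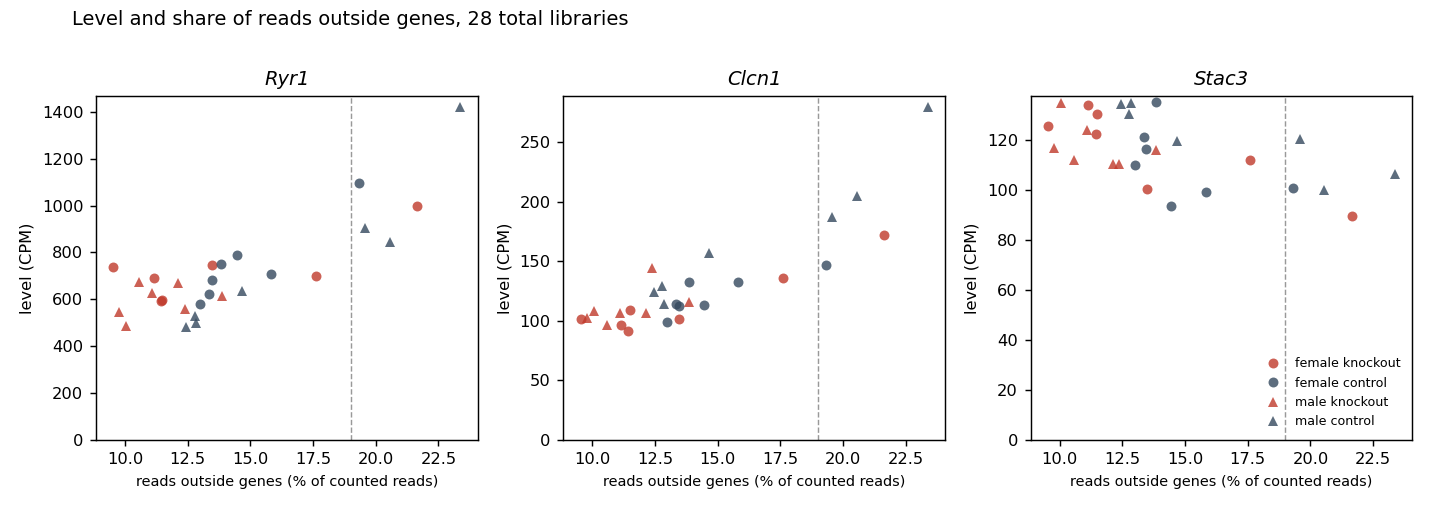
Level of Ryr1, Clcn1 and Stac3 (CPM) against the share of counted reads outside genes (%) in the 28 total libraries; each point is 1 library, red for knockout and dark for control, circles for female and triangles for male, and the dashed line is at 19%. Ryr1 is at 843 to 1420 CPM in the 5 libraries right of the line and at most 789 CPM left of it, and Stac3 shows no such step.

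**Figure D2:**
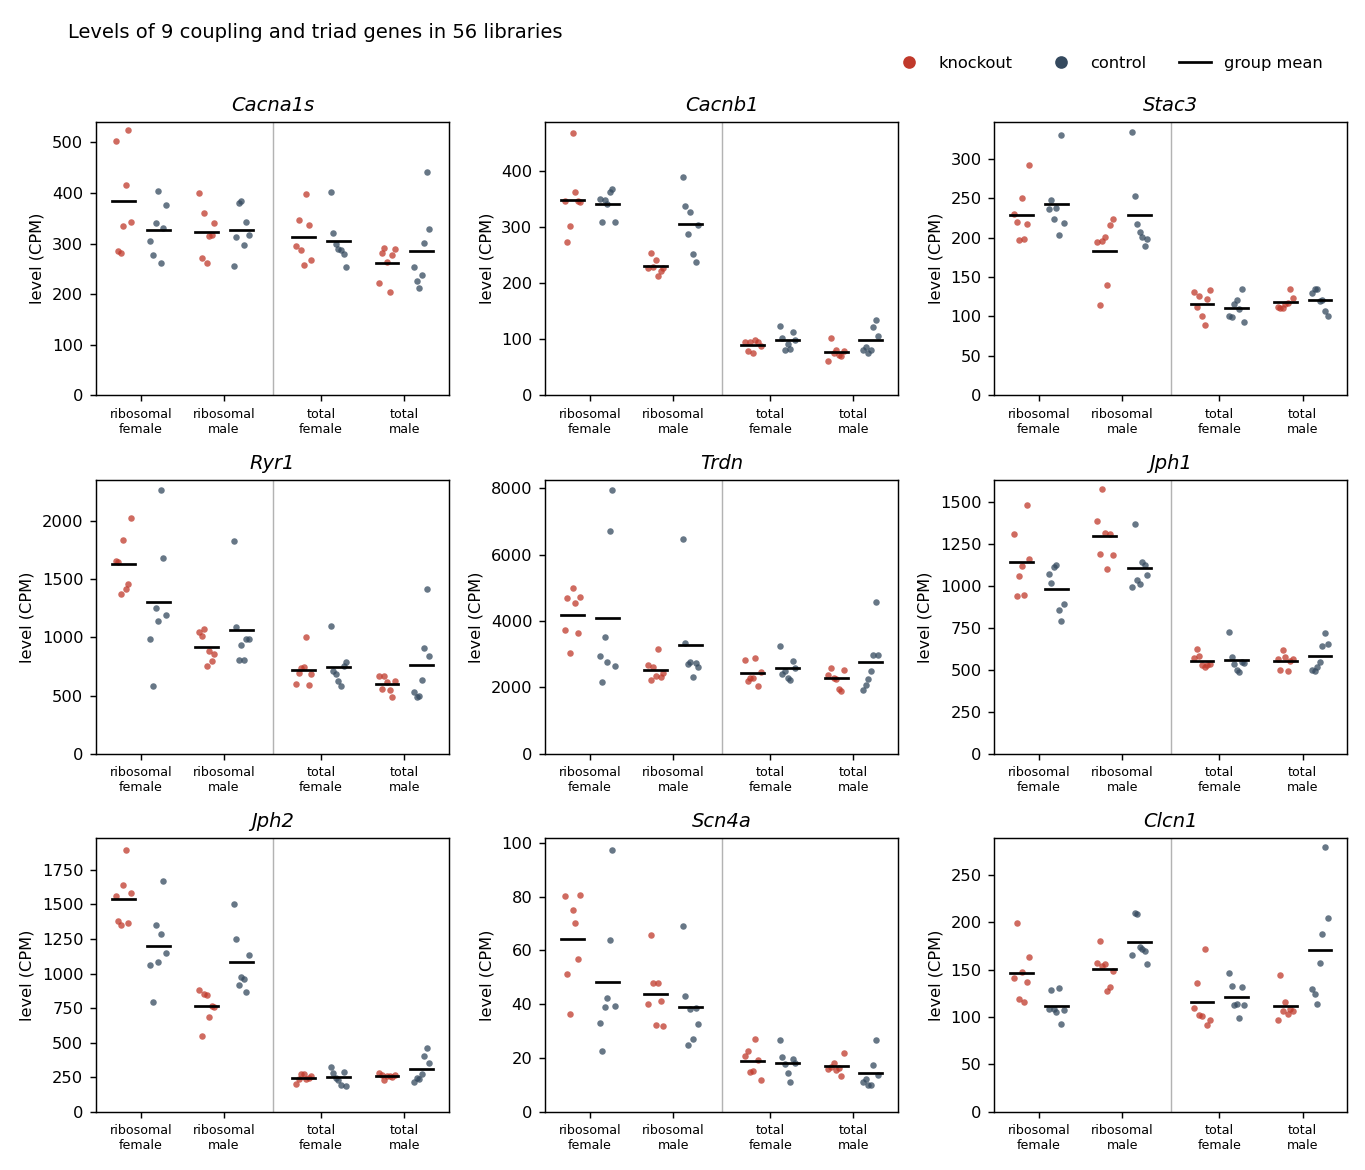
Level (CPM, axis from 0) of the 9 genes in all 56 libraries; points are libraries, bars are means of 7, ribosomal groups stand left of total groups, and knockouts (red) stand left of controls (dark). Jph2 in ribosome-bound RNA is highest in female knockouts and lowest in male knockouts, and the levels of Jph2, Cacnb1 and Jph1 in ribosome-bound RNA lie above those in total RNA.

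Cacna1s (ENSMUSG00000026407, chromosome 1) encodes the pore-forming subunit of the skeletal L-type calcium channel, the voltage sensor itself, and it did not pass the test in any knockout comparison as fitted. With the mitochondrially encoded messages as a covariate it did pass in female ribosome-bound RNA, at 0.55 (adjusted p = 0.0196), against 0.28 (adjusted p = 0.139) without it. Cacna1s levels in female ribosome-bound RNA were 281 to 524 CPM in knockouts (median 342) and 261 to 403 CPM in controls (median 330). Male ribosomal levels were 262 to 400 CPM in knockouts (median 318) and 256 to 385 CPM in controls (median 317). In total RNA the medians were 294 CPM in female knockouts, 290 CPM in female controls, 278 CPM in male knockouts and 253 CPM in male controls. All of these ranges overlapped, and neighbours in the order of the 8 group means overlapped at every step, from 383 CPM in ribosomal female knockouts down to 261 CPM in total male knockouts. The log2 fold change of knockout over control was 0.28 in female ribosome-bound RNA (SE 0.13, adjusted p = 0.139, edgeR quasi-likelihood test), with an interval of 0.02 to 0.54.

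Cacnb1 (ENSMUSG00000020882, chromosome 11) encodes the β1 subunit, which brings the channel to the triad and is needed for coupling. It fell in male ribosome-bound RNA, where knockouts had 212 to 254 CPM (median 228) and controls 238 to 389 CPM (median 303). Of the 7 male knockouts, 5 were below all male controls. Its log2 fold change was -0.39 (SE 0.11, adjusted p = 0.0244), a level 0.763 times that of controls. This call was lost when male knockout 13 or 14 or male control 20, 21 or 23 was left out, with values of -0.38, -0.38, -0.32, -0.37 and -0.37. Without the ribosomal libraries under 750000 counts it was -0.35 (adjusted p = 0.01).

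Cacnb1 showed no such fall in female ribosome-bound RNA, where knockouts had 273 to 466 CPM (median 345) and controls 308 to 368 CPM (median 348). The log2 fold change in females was 0.09 (SE 0.12, adjusted p = 0.643), and the difference of the male and female effects, -0.48 (SE 0.16), did not pass the test (adjusted p = 0.0847). In male total RNA Cacnb1 was at 61.1 to 101 CPM in knockouts (median 76.2) and 75 to 134 CPM in controls (median 85.6), a log2 fold change of -0.34 (SE 0.12, adjusted p = 0.059). It passed the test when male knockout 2 or male control 20, 21, 22 or 23 was left out, at -0.42, -0.37, -0.37, -0.40 and -0.37, and became -0.08 (adjusted p = 0.724) without the 5 total libraries with many reads outside genes. In female total RNA its medians were 95 CPM in knockouts and 98.3 CPM in controls, with a log2 fold change of -0.15 (SE 0.12).

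Stac3 (ENSMUSG00000040287, chromosome 10) encodes an adaptor that binds the voltage sensor and is needed for its coupling to calcium release. It did not pass the test in any knockout comparison. Stac3 levels in ribosome-bound RNA were 197 to 292 CPM in female knockouts (median 220), 203 to 330 CPM in female controls (median 236), 115 to 223 CPM in male knockouts (median 196) and 189 to 334 CPM in male controls (median 207). In total RNA its 4 medians were between 110 and 122 CPM. Groups overlapped throughout, and the log2 fold changes were -0.02 and -0.24 in female and male ribosome-bound RNA and 0.05 and -0.06 in female and male total RNA, with adjusted p of 0.961, 0.295, 0.775 and 0.712. The intervals reached from -0.50 to 0.26 in ribosome-bound RNA and from -0.23 to 0.23 in total RNA, so changes within those bounds could not be told from the spread.

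Ryr1 (ENSMUSG00000030592, chromosome 7) encodes the release channel of the sarcoplasmic reticulum. Ryr1 levels in female ribosome-bound RNA were 1377 to 2026 CPM in knockouts (median 1646) and 586 to 2266 CPM in controls (median 1192), and the control range enclosed all knockouts. Male ribosomal levels were 755 to 1076 CPM in knockouts (median 887) and 809 to 1830 CPM in controls (median 983). The log2 fold changes, 0.38 (SE 0.20) in females and -0.19 (SE 0.20) in males, did not pass the test (adjusted p = 0.199 and 0.634). Of the 7 female controls, libraries 18 and 19 are among those under 750000 counts, called shallow here, and held 2266 and 1688 CPM. Without the shallow ribosomal libraries the female value was 0.57 (SE 0.15) and passed the test (adjusted p = 0.0114), and without female control 18 alone it was 0.58 (adjusted p = 0.0312). In the fit without shallow libraries, all female knockouts left had fewer counts than the female controls left.

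In total RNA Ryr1 was at 591 to 1000 CPM in female knockouts (median 698), 582 to 1097 CPM in female controls (median 709), 484 to 671 CPM in male knockouts (median 614) and 483 to 1420 CPM in male controls (median 636). The medians of knockouts and controls lay close together while single libraries reached far above them. The male log2 fold change was -0.36 (SE 0.18, adjusted p = 0.178), and it was 0.13 (adjusted p = 0.52) without the 5 libraries with many reads outside genes.

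Trdn (ENSMUSG00000019787, chromosome 10) encodes triadin, which anchors calsequestrin at the release channel. Its female ribosomal levels were 3036 to 4997 CPM in knockouts (median 4532) and 2175 to 7949 CPM in controls (median 2944), with the 2 highest controls in shallow libraries. Male ribosomal levels were 2214 to 3159 CPM in knockouts (median 2446) and 2323 to 6482 CPM in controls (median 2720). No comparison of knockout with control called Trdn, with log2 fold changes of 0.08 and -0.35 in female and male ribosome-bound RNA and -0.10 and -0.29 in female and male total RNA. Trdn in females became 0.46 (SE 0.14, adjusted p = 0.0206) without the shallow ribosomal libraries. Its coefficient of variation reached 55.4% in a group, where the most for any group was 51.8% for Scn4a, 44.3% for Ryr1 and 17.1% for Jph1, while the median over groups was 15.7% for Trdn and 27.2% for Scn4a.

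Jph1 and Jph2 encode the junctophilins, which tether the tubule to the reticulum and set the gap that coupling needs. Jph1 (ENSMUSG00000042686, chromosome 1) in ribosome-bound RNA was at 938 to 1478 CPM in female knockouts (median 1117), 791 to 1120 CPM in female controls (median 1015), 1100 to 1573 CPM in male knockouts (median 1306) and 993 to 1365 CPM in male controls (median 1061). Its log2 fold change was 0.28 (SE 0.11, adjusted p = 0.09) in females and 0.25 (SE 0.11, adjusted p = 0.172) in males, and the difference of the effects was -0.03 (interval -0.34 to 0.29). In total RNA its 4 medians lay between 535 and 561 CPM, with log2 fold changes of -0.02 in females and -0.09 in males.

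Jph2 (ENSMUSG00000017817, chromosome 2) in ribosome-bound RNA moved in opposite directions in the sexes. In female ribosome-bound RNA, knockouts had 1355 to 1894 CPM (median 1564) and controls 796 to 1671 CPM (median 1147). In male ribosome-bound RNA, knockouts had 549 to 885 CPM (median 766) and controls 868 to 1500 CPM (median 976). Female knockouts overlapped the female controls, 6 of 7 male knockouts were below all male controls, and the male and female knockouts did not overlap each other. Jph2 had a log2 fold change of 0.42 (SE 0.15, adjusted p = 0.0453) in females and -0.48 (SE 0.15, adjusted p = 0.0328) in males. The difference of the male and female effects was -0.90 (SE 0.21, adjusted p = 0.0148), and it stayed past the threshold under each of the 34 alternatives run, at -0.996 to -0.649 with adjusted p of 0.00163 to 0.0422. It was -0.89 (adjusted p = 0.00581) without the shallow libraries. A fit with the mitochondrially encoded messages as a covariate was not among the 34, as it was run only for knockout against control in each sex.

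Each sex on its own was less firm for Jph2. The female call was lost when female knockout 1, 2, 6, 9 or 12 or female control 14, 15, 17 or 21 was left out, at 0.41, 0.43, 0.39, 0.36, 0.40, 0.38, 0.33, 0.38 and 0.40. The male call was lost when male knockout 2, 12, 13 or 14 or male control 20, 21 or 27 was left out, at -0.43, -0.46, -0.47, -0.47, -0.38, -0.45 and -0.47. Without the shallow libraries the female value was 0.56 (adjusted p = 0.00515) and the male value -0.34 (adjusted p = 0.058). In total RNA Jph2 was at 202 to 270 CPM in female knockouts (median 243), 189 to 326 CPM in female controls (median 244), 232 to 278 CPM in male knockouts (median 260) and 217 to 462 CPM in male controls (median 272). Those groups overlapped, and the log2 fold changes were -0.04 (adjusted p = 0.898) and -0.29 (adjusted p = 0.149) in females and males.

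The sequences of the junctophilin messages differ in the pentamer ATTTA, the core of AU-rich elements. Over the 3′ untranslated region of 1 GENCODE transcript a gene, Jph1 held 13 copies in 2541 bases on the sense strand, and 2.7% of the 3366 genes with at least that length had as many over the same distance from the end. Jph2 held 2 copies in 1697 bases, where 75.4% of genes with at least that length had at least as many. Stac3, Trdn and Scn4a held 1 each, where 49.2%, 94.0% and 81.2% had at least as many, each counted the same way. Cacna1s, Cacnb1, Ryr1 and Clcn1 held 0, where 69.0%, 87.1%, 24.5% and 58.4% had at least 1. The longer word TTATTTATT was in 0 of the 9, against 1.1% to 12.2% of genes over the same distances. A match is a description of letters and not a HuR site. The copy nearest the transcript end is shown for the pair of junctophilins, with the pentamer in capitals, 80 bases from the end in Jph1 and 953 in Jph2.
Jph1: gtgggttccttaATTTAtaatccttgaaac
Jph2: aggctggagttcATTTAgggtcatggatgt

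Scn4a (ENSMUSG00000001027, chromosome 11) encodes the sodium channel that carries the action potential, and it had the fewest counts of the 9, with 3685 over all libraries and as few as 8 in 1. Scn4a levels in female ribosome-bound RNA were 36.3 to 80.5 CPM in knockouts (median 70.1) and 22.6 to 97.3 CPM in controls (median 39.3), and the control range enclosed the knockouts. Its log2 fold change was 0.70 (SE 0.24, adjusted p = 0.0425), a level 1.62 times that of controls. This call was lost when female knockout 1, 6, 9 or 12 or female control 14, 15, 16, 17 or 21 was left out, at 0.62, 0.66, 0.67, 0.63, 0.63, 0.53, 0.68, 0.69 and 0.68, and it was 0.87 (adjusted p = 0.00578) without the shallow libraries.

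Scn4a in male ribosome-bound RNA was at 31.9 to 65.6 CPM in knockouts (median 41.2) and 24.7 to 69.1 CPM in controls (median 38), with a log2 fold change of 0.16 (SE 0.22, adjusted p = 0.72). In total RNA its medians were 19.3 CPM in female knockouts, 18 CPM in female controls, 16.4 CPM in male knockouts and 12.1 CPM in male controls, and the groups overlapped. The male total log2 fold change was 0.27 (SE 0.20, adjusted p = 0.381), and 0.62 (SE 0.17, adjusted p = 0.0283) without the 5 libraries with many reads outside genes.

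Clcn1 (ENSMUSG00000029862, chromosome 6) encodes the chloride channel that damps the fibre membrane and whose loss causes myotonia. It rose in female and not in male ribosome-bound RNA. In female ribosome-bound RNA Clcn1 was at 116 to 199 CPM in knockouts (median 141) and 93.1 to 131 CPM in controls (median 108), and 5 of 7 knockouts were above all controls. In male ribosome-bound RNA it was at 128 to 180 CPM in knockouts (median 154) and 156 to 210 CPM in controls (median 171), and 5 of 7 knockouts were below all controls. The log2 fold change was 0.43 (SE 0.12, adjusted p = 0.0135) in females and -0.26 (SE 0.11, adjusted p = 0.155) in males, and the difference of the effects was -0.69 (SE 0.17, adjusted p = 0.0185). The female value was 0.33 (adjusted p = 0.057) without female knockout 2 and 0.25 (adjusted p = 0.145) without the shallow libraries. Without those libraries the male value was -0.31 (adjusted p = 0.0313), which passed the test, and the difference was -0.56 (adjusted p = 0.0347).

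Clcn1 fell in male total RNA, at 96.7 to 144 CPM in knockouts (median 107) and 114 to 279 CPM in controls (median 157). There 5 of 7 knockouts were below all controls, and the log2 fold change was -0.62 (SE 0.16, adjusted p = 0.0109). Male controls 25, 26 and 27, at 188, 279 and 205 CPM, are 3 of the libraries with many reads outside genes, and without those libraries the value was -0.25 (SE 0.11, adjusted p = 0.196). In female total RNA Clcn1 was at 91.3 to 172 CPM in knockouts (median 102) and 98.8 to 147 CPM in controls (median 114), with a log2 fold change of -0.08 (SE 0.16, adjusted p = 0.813).

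Promoters of Jph2 and Clcn1 are shown because these were the 2 genes whose knockout effect differed between the sexes in ribosome-bound RNA. The windows run from 250 bases before to 50 after the gene start, from RefSeq on GRCm38.p6, chr2:163397944-163398243 on the minus strand for Jph2 and chr6:42286435-42286734 on the plus strand for Clcn1. Capitals mark the E-box CAGCTG, which reads the same on both strands, the E-box CAGGTG or its reverse CACCTG, and CTA and TAG with 4 bases between, the outline of a MEF2 site. Of 27025 promoters of this length, 16.1% hold CAGCTG, 20.0% hold CAGGTG or CACCTG and 3.7% hold the MEF2 outline. Jph2 holds 1 CAGCTG and Clcn1 holds 1 CACCTG and 1 MEF2 outline, and Cacna1s, of the other 4 genes in the table, holds 1 CAGCTG.
Jph2: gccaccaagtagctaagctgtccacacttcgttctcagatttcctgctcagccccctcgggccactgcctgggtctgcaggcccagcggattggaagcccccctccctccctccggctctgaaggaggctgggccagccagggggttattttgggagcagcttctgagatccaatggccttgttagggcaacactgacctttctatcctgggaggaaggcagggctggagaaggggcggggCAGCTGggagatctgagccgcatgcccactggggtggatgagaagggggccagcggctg
Clcn1: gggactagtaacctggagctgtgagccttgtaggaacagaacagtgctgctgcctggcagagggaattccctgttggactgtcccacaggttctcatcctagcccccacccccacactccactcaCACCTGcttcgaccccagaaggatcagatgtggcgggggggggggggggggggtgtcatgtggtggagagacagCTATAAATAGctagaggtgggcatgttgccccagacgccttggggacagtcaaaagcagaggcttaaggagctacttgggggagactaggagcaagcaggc

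Set side by side, the knockout comparisons called few of the 9 genes. In female ribosome-bound RNA 3 rose (Clcn1, Jph2 and Scn4a) and 0 fell, with a median log2 fold change of 0.28, where 16.8% of all genes tested were called (8.44% higher and 8.41% lower) and the median of all was -0.02. Male ribosome-bound RNA had 0 higher and 2 lower (Cacnb1 and Jph2), with a median of -0.24, against 8.96% of all genes called (4.09% higher and 4.87% lower). Female total RNA had 0 calls by edgeR, DESeq2 and limma-voom and 0 at an unadjusted p under 0.05, against 8.49% of all genes (3.79% higher and 4.7% lower). Male total RNA had 1 lower (Clcn1), against 14.2% of all genes (6.83% higher and 7.36% lower). The difference of male and female knockout effects was called for 2 of the 9 in ribosome-bound RNA, against 3.43% of all genes (1.89% higher and 1.54% lower), and all 9 values were below 0, at -0.03 to -0.90. Under other settings Jph1 reached 0.229 and Stac3 0.074 in this difference, and the 9 values come from the same libraries. In total RNA that difference was called for 0 of 9 and for 0% of all genes by edgeR, with 1 gene of the 9 (Clcn1) at an unadjusted p under 0.05, and DESeq2 called 0 of the 9.

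**Figure D3:**
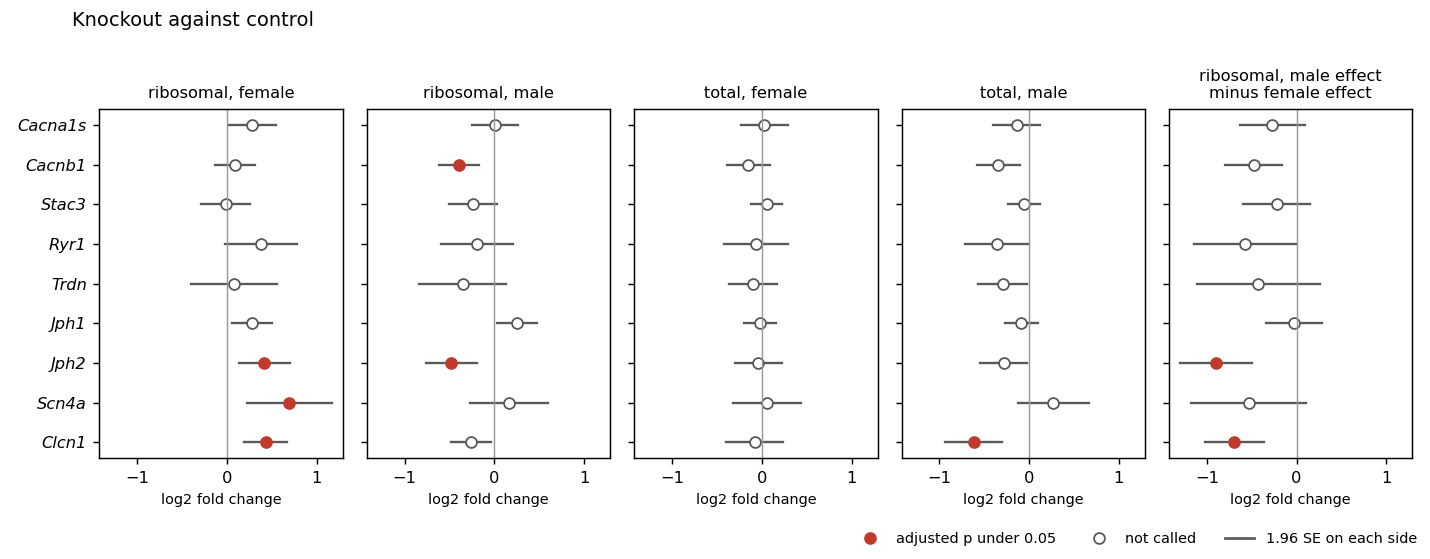
Log2 fold change of knockout over control for the 9 genes in female and male ribosome-bound RNA and female and male total RNA, and, in the last panel, the male effect minus the female effect in ribosome-bound RNA; lines span 1.96 SE on each side, and filled points have an adjusted p under 0.05. Jph2 stands at 0.42 in female and -0.48 in male ribosome-bound RNA, and no point is filled in female total RNA.

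Other measures moved with the female ribosomal groups. There 9 of 9 matrix and fibroblast markers, 6 of 6 tested endothelial markers, 6 of 6 tested mitochondrially encoded messages and 7 of 8 slow fibre markers were higher in knockouts. Matrix markers summed to 435 to 1327 CPM in female knockouts and 224 to 356 CPM in female controls, with none at 0, and slow fibre markers to 6569 to 12680 CPM and 4027 to 7255 CPM in the same order. With 3 of the 9 at 0 in knockouts and 1 in controls, mitochondrially encoded messages summed to 6004 to 27640 CPM in female knockouts and 1634 to 7158 CPM in female controls. With that mitochondrial level as a covariate the female log2 fold changes were 0.27 for Jph2 (adjusted p = 0.388), 0.15 for Scn4a (adjusted p = 0.834) and 0.42 for Clcn1 (adjusted p = 0.13), and Cacna1s was then the 1 gene of the 9 called. In male ribosome-bound RNA 0 of 9 matrix, 0 of 6 mitochondrially encoded, 3 of 8 slow fibre and 2 of 4 tested adipocyte markers were higher in knockouts. In male total RNA 9 of 9 matrix markers were higher, with a median log2 fold change of 0.51, at 2962 to 4338 CPM in knockouts and 1836 to 3006 CPM in controls. Erythroid markers were higher in knockouts in all 4 comparisons, 5 of 5 tested in each, with median log2 fold changes of 1.63 and 1.14 in female and male ribosome-bound RNA and 0.90 and 1.02 in female and male total RNA. Their sums in ribosome-bound RNA were 335 to 1251 CPM in female knockouts, 156 to 309 CPM in female controls, 416 to 607 CPM in male knockouts and 187 to 301 CPM in male controls, and in male total RNA 1266 to 2187 CPM in knockouts and 597 to 877 CPM in controls, with none of the 6 at 0. In female total RNA the sums overlapped, at 660 to 1852 CPM in knockouts and 564 to 896 CPM in controls. The part of these markers in the calls of the 9 genes was not tested. The mitochondrial level itself differed between female knockouts and controls, so the fit with that covariate cannot tell its part from that of the knockout. In these whole-muscle samples fewer fibres and less RNA a fibre cannot be told apart.

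Ribosome-bound RNA held more of most of the 9 messages than total RNA of the same muscles did. Ribosomal against total was higher for 9 of 9 in female knockouts, 7 in female controls, 8 in male knockouts and 6 in male controls, with 0 lower, where 64.8%, 68.1%, 68.3% and 70.7% of all genes were called in the same order and 26.6%, 30.1%, 31.1% and 32.1% were called higher and 38.2%, 38.1%, 37.1% and 38.6% lower. Jph2 stood furthest from total RNA, at 6.27 times the total level in female knockouts, 4.77 in female controls, 2.99 in male knockouts and 3.47 in male controls, and all ribosomal libraries were above all total libraries of their group. Cacnb1 was at 3.86, 3.42, 2.95 and 3.11 times the total level in the same order, also without overlap. Jph1 was at 2.07, 1.76, 2.35 and 1.90 times, Scn4a at 3.33, 2.22, 2.39 and 2.62 times and Stac3 at 1.95, 2.15, 1.62 and 1.86 times. These 5 genes were called higher in all 4 groups, and only with library totals did 2 of these calls go, Jph1 in female controls (0.28, adjusted p = 0.0581) and Stac3 in female knockouts (0.26, adjusted p = 0.0574).

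Ryr1 was at 2.25, 1.72, 1.54 and 1.4 times the total level in the same order and was called in all 4 groups, but the male calls depended on the setting. Of 7 settings, the reported one included, 3 called it in male controls, at -0.01 to 0.53 with adjusted p up to 0.96, and 4 in male knockouts, at 0.22 to 0.62 with adjusted p up to 0.201. Without the shallow libraries Ryr1 in male controls was at 0.31 (adjusted p = 0.0921). With all libraries kept, 1 of 7 ribosomal male controls was above all total male controls, the shallow control 20 at 1830 CPM. The highest total male control for Ryr1 was 26, at 1420 CPM, a library with many reads outside genes. No fit of ribosomal against total left out the total libraries over 19% outside genes, which include male controls 25, 26 and 27. Trdn was called in females, at 1.73 times in knockouts and 1.59 times in controls, and not in males, at 1.12 times in knockouts and 1.19 times in controls. Without the shallow libraries Trdn in female controls was at 0.13 (adjusted p = 0.423). Cacna1s and Clcn1 lay nearest to total RNA, at 1.24 and 1.25 times in female knockouts, 1.08 and 0.926 times in female controls, 1.25 and 1.32 times in male knockouts and 1.16 and 1.06 times in male controls. Their calls in knockouts were lost with RLE factors and by DESeq2, in females and in males, and that of Clcn1 in female knockouts without the shallow libraries, at 0.13 (adjusted p = 0.531). With library totals as the scaling Cacna1s and Clcn1 turned to -0.395 and -0.388 on the log2 scale in female knockouts and were called lower, and Trdn and Ryr1 turned in some groups too. The median log2 fold change of all genes was -0.25, -0.12, -0.06 and -0.09 in the 4 groups, and -0.93, -0.61, -0.43 and -0.53 when library totals were used. With the mouse as a replicate block Cacna1s in female knockouts was at 0.28 (adjusted p = 0.0783). The difference of the knockout effect between ribosomal and total RNA did not pass the test for any of the 9 by edgeR or DESeq2. At an unadjusted p under 0.05 were 2 in females (Jph2 and Clcn1) and 1 in males (Jph1). Of all genes 3.46% were called in females (1.85% higher and 1.61% lower) and 0.128% in males (0.0319% higher and 0.0956% lower). The 9 values were -0.14 to 0.584 in females and -0.216 to 0.32 in males. Intervals were wide, as for Scn4a in females at -0.02 to 1.19, so differences within them could not be told from the spread. This difference was not fitted without the total libraries over 19% outside genes. Fibre and matrix markers moved with the RNA type in all 4 groups. Fast fibre markers were higher in ribosome-bound RNA for 8, 7, 6 and 6 of 8 in the 4 groups, with median log2 fold changes of 1.26 to 1.74, and matrix markers were lower for 9 of 9 in each group, with medians of -3.46 to -2.10. Over the groups fast fibre markers summed to 59560 to 201800 CPM in ribosomal and 24890 to 49950 CPM in total libraries, and matrix markers to 224 to 1327 CPM and 1414 to 4338 CPM, with none at 0. Their part in the values of the 9 genes was not tested.

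**Figure D4:**
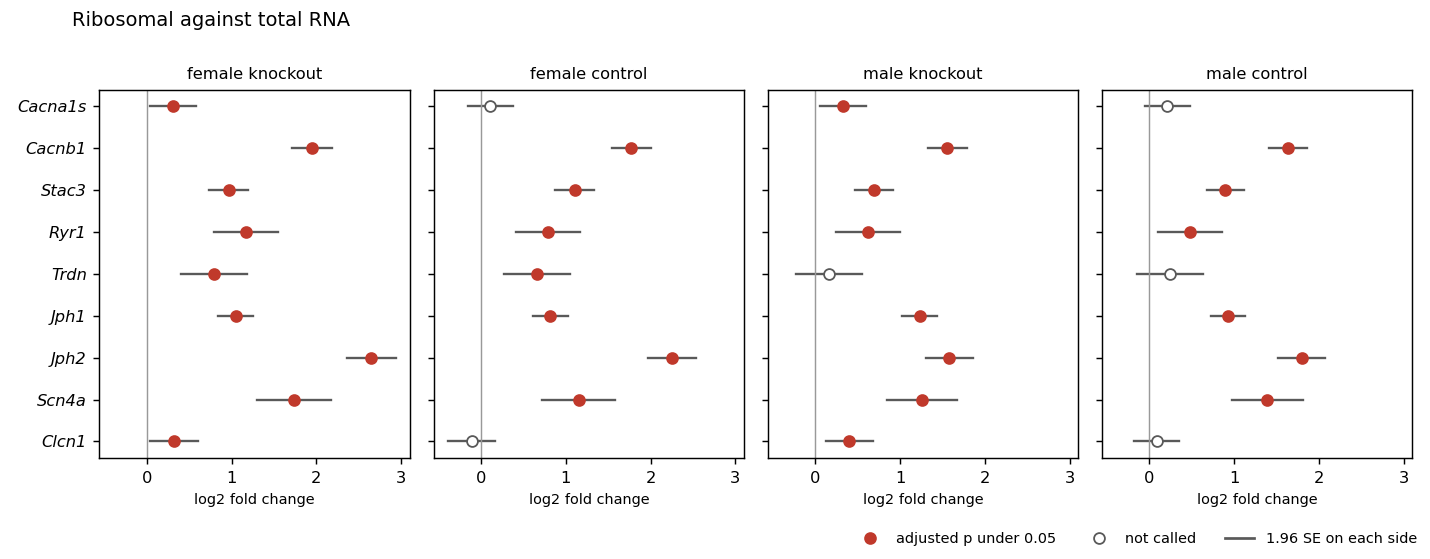
Log2 fold change of ribosomal over total RNA for the 9 genes in female knockouts, female controls, male knockouts and male controls; lines span 1.96 SE on each side, and filled points have an adjusted p under 0.05. Jph2 is farthest right in both female groups, at 2.65 in knockouts and 2.25 in controls, and Clcn1 in female controls is at -0.11.

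Between male and female controls Clcn1 was the 1 gene of the 9 that was called. In ribosome-bound RNA Clcn1 was at 156 to 210 CPM in male controls and 93.1 to 131 CPM in female controls, and all 7 males were above all females. The log2 fold change of male over female was 0.67 (SE 0.12, adjusted p = 0.000149), past the threshold in each of the 20 alternatives run, at 0.628 to 0.775. In that comparison 7.63% of all genes were called, 4.25% higher in males and 3.37% lower. In total RNA Clcn1 was at 114 to 279 CPM in male controls and 98.8 to 147 CPM in female controls, a log2 fold change of 0.47 (SE 0.16, adjusted p = 0.059), and 0.16 (adjusted p = 0.465) without the libraries with many reads outside genes. It passed the test when female control 14 or male control 20, 21 or 22 was left out, at 0.53, 0.53, 0.54 and 0.55. There 0 of 9 were called by edgeR, 2 were at an unadjusted p under 0.05 and DESeq2 called 1, against 8.7% of all genes (4.75% higher and 3.95% lower in males). Without those libraries Ryr1 was at -0.37 (adjusted p = 0.0282), Scn4a at -0.64 (adjusted p = 0.0172) and Cacna1s at -0.32 (adjusted p = 0.0469), lower in male than in female controls. Slow fibre markers were lower in male controls, 5 of 8 in ribosome-bound RNA (median log2 fold change -0.72) and 7 of 8 in total RNA (median -0.76). They summed to 2892 to 4654 CPM in male and 4027 to 7255 CPM in female ribosomal controls, and to 1232 to 2074 CPM in male and 2114 to 2708 CPM in female total controls, with none at 0. Adipocyte markers were lower too, 2 of 4 tested in ribosome-bound RNA (median -0.68) and 3 of 6 in total RNA (median -0.53), and 3 of 7 macrophage and 2 of 9 matrix markers were higher in total RNA. Their part in the difference of Clcn1 was not tested.

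Ratios of 2 genes within a library do not depend on how libraries are scaled. A set of 6 ratios was compared in 4 groups of sex and RNA type by exact permutation tests, 24 in all, and 2 passed. The log2 ratio of Jph2 to Jph1 in male ribosome-bound RNA was -1.11 to -0.64 in knockouts and -0.37 to 0.59 in controls, and all 7 knockouts were below all controls. Its mean was -0.77 ± 0.17 in knockouts and -0.04 ± 0.32 in controls (SD, n = 7 each), a difference of -0.73 (2-sided exact permutation p = 0.000583, the smallest that 3432 arrangements allow, adjusted p = 0.00699). In female ribosome-bound RNA the same ratio was 0.44 ± 0.34 in knockouts and 0.27 ± 0.47 in controls (SD, n = 7 each), a difference of 0.165 (exact permutation, adjusted p = 0.707).

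The log2 ratio of Clcn1 to Scn4a in male total RNA was 2.28 to 3.10 in knockouts and 3.35 to 3.95 in controls, again with all 7 knockouts below all controls. Its mean was 2.72 ± 0.29 in knockouts and 3.58 ± 0.24 in controls (SD, n = 7 each), a difference of -0.855 (exact permutation p = 0.000583, adjusted p = 0.00699). Without male controls 25, 26 and 27 the difference was -0.87, with all 7 knockouts below the remaining 4 controls, and p was 0.00606, the smallest that 330 arrangements allow in this exact permutation test, which gives an adjusted p of 0.0727. The 22 other ratios, among them Stac3, Cacnb1 and Ryr1 over Cacna1s and Trdn over Ryr1, had adjusted p of 0.27 or more.

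**Figure D5:**
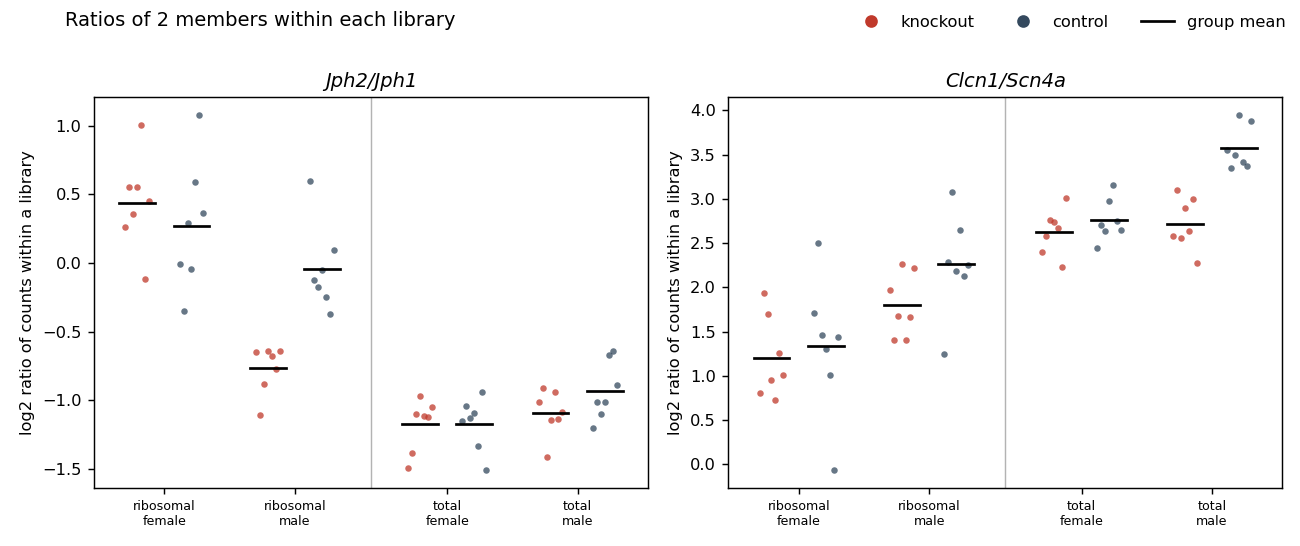
Log2 ratio of counts of Jph2 to Jph1 and of Clcn1 to Scn4a within each of the 56 libraries; points are libraries, bars are means of 7, and knockouts (red) stand left of controls (dark). In male ribosome-bound RNA the Jph2 to Jph1 ratio is at most -0.64 in knockouts and at least -0.37 in controls, and in male total RNA the Clcn1 to Scn4a ratio is at most 3.10 in knockouts and at least 3.35 in controls.

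Other genes of the triad and fibre membrane were counted from lists of related genes. The shares of all genes called against which these counts stand were 8.44% higher and 8.41% lower in female ribosome-bound RNA, 4.09% and 4.87% in male ribosome-bound RNA, 3.79% and 4.7% in female total RNA, and 6.83% and 7.36% in male total RNA, and no list's count was tested against them. Of 14 tested genes of the junctional reticulum, 2 rose and 1 fell in female ribosome-bound RNA. Casq1, the calsequestrin of fast fibres, was at 3615 ± 432 CPM in knockouts and 2257 ± 244 CPM in controls (log2 fold change 0.73, adjusted p = 3e-04), and Casq2, the calsequestrin of slow and heart muscle, had a log2 fold change of 0.60 (adjusted p = 0.0148), and 0.41 (adjusted p = 0.111) without the shallow libraries and 0.49 (adjusted p = 0.0554) without female knockout 2. Homer1, a scaffold that binds release channels, fell, with -0.75 (adjusted p = 0.00288). With the mitochondrial covariate Homer1 was at -0.23 (adjusted p = 0.541) and Casq2 at 0.47 (adjusted p = 0.293). None of these 14 was called in male ribosome-bound RNA. Of 15 tested in total RNA, 0 rose, and 3 fell in females and 2 in males: Homer1 at -0.57 and -0.62, Tmem38b, a cation channel of the reticulum, at -0.37 and -0.26, and, in females, its relative Tmem38a at -0.24 (adjusted p = 0.0375). The call of Tmem38a was lost in 9 of 14 fits that left out 1 library, at -0.25 to -0.19, and it was -0.19 (adjusted p = 0.0769) without the libraries over 19% outside genes. In males Homer1 was at -0.29 (adjusted p = 0.0549) without those libraries, and Tmem38b lost its call without male knockout 2 or 14 or male control 27, at -0.21, -0.24 and -0.22.

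Slc8a3, a sodium-calcium exchanger, fell in male ribosome-bound RNA (-0.57, adjusted p = 0.031), female total RNA (-0.64, adjusted p = 0.0149) and male total RNA (-0.79, adjusted p = 0.00395). The male ribosomal call was lost without male knockout 6, 10, 13 or 14 or male control 21 or 27, at -0.55, -0.51, -0.51, -0.59, -0.54 and -0.54 with adjusted p up to 0.089. The female total call was lost without female control 14 (-0.51, adjusted p = 0.0528), and the male total call without the libraries over 19% outside genes (-0.49, adjusted p = 0.0508). It was the 1 gene to fall among 9 tested genes of calcium reuptake and buffering in those comparisons, and 0 rose. In female ribosome-bound RNA 1 of those 9 rose, the calcium pump Atp2a2 at 0.60, which is also a slow fibre marker. There 1 fell, Mrln, an inhibitor of calcium pumps, at -0.31 (adjusted p = 0.0496). The call of Mrln was near the threshold and was lost in 9 of 14 fits that left out 1 library, with adjusted p up to 0.114. Of 11 genes that shape tubules, Bin1 rose in female ribosome-bound RNA (0.50, adjusted p = 0.00904), Cav3 and Ank1 fell in male ribosome-bound RNA (-0.42 and -0.57, adjusted p = 0.0144 and 0.028), and 0 were called in total RNA. Ank1 lost its call without male knockout 2 or 14 or male control 20 or 21, at -0.53, -0.55, -0.40 and -0.55. The calcium entry channel Orai1 rose in female ribosome-bound RNA (0.54, adjusted p = 0.00309), as 1 of 4 tested genes of store-operated entry, and 0 of the 4 were called in the other 3 knockout comparisons. With the mitochondrial covariate Bin1 was at 0.24 (adjusted p = 0.352) and Orai1 at 0.38 (adjusted p = 0.178).

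Among 7 tested partners of the voltage sensor, 0 rose and 2 fell in female ribosome-bound RNA, among them Calm3, a calmodulin gene, at -0.38 (adjusted p = 0.0441), a call lost in 8 of 14 fits that left out 1 library, and 0 were called in male ribosome-bound RNA or among 9 in total RNA. Among 14 tested genes of membrane excitability, Kcnc1, a potassium channel, rose (0.80, adjusted p = 0.00358) and Kcnj2, an inward rectifier, fell (-0.51, adjusted p = 0.0496) in female ribosome-bound RNA, and 0 were called in male ribosome-bound RNA. The call of Kcnj2 was near the threshold and held in 8 of 24 settings, the reported one included, and was lost in 10 of 14 fits that left out 1 library and without the shallow libraries (-0.55, adjusted p = 0.0608). Of 14 tested in total RNA, 0 rose and 1 fell in females, and 1 rose and 1 fell in males. Paralogs of the 9 genes were scarce, with 1 of 16 tested in ribosome-bound RNA and 6 in total RNA, where Ryr3 fell in males to 1.72 ± 0.84 CPM in knockouts, against 5.41 ± 2.86 CPM in controls (-1.56, adjusted p = 0.00423). Without the libraries over 19% outside genes Ryr3 was at -0.90 (adjusted p = 0.112). Median log2 fold changes of these 7 lists were between -0.28 and 0.32, against -0.016 to 0.015 for all genes.

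The patterns over the 8 group means were set beside those of 7862 genes as a description. Ryr1 was most like Actn2, a Z-disc actinin, with a root mean square difference of 0.051 on the log2 scale, and Jph2 was most like Zcchc17 (0.065) and Tcap (0.080), which encodes a titin-binding Z-disc protein. Scn4a was nearest to Anapc5 (0.086) and Acta1 (0.087), the skeletal actin, Cacnb1 to Mon1a and Cox7a2l (0.087 each), and Clcn1 was near to Rock2 (0.110). Stac3 was nearest to Arf2 (0.042) and Nrbp1 (0.048), Jph1 to Mafg (0.054) and Fam160a1 (0.060), Trdn to Ppil2 (0.068) and Ap2b1 (0.074), Cacna1s to Spast (0.060) and Coa5 (0.067), and Ryr1 next to Paf1 (0.073). Among the 9 themselves the closest pairs were Trdn with Cacna1s and with Ryr1 (0.193 each). A nearest gene taken from 7862 candidates is likely to lie closer than a nearest gene among the 9, so these distances were not compared.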

How the data were processed

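Gastrocnemius RNA of 28 mice was sequenced as QuantSeq 3′ tag libraries, 50-base forward reads from 500 ng of RNA, per the labels' protocols. The authors deposited raw counts per gene for 56 libraries. The submitters' processing notes name UMI-tools, STAR, HTSeq, DESeq2 1.40.1, R 4.3.0 and the build GRCm39, with no role or order, and the strand setting is not given in the sources used here. The 5 summary lines of the table were left out of library sizes, and no 2 libraries were identical.

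Counts were analysed with edgeR 4.0.16 in R 4.3.3 (filterByExpr, minimum count 10, TMM factors, quasi-likelihood tests, Benjamini-Hochberg adjustment over all genes tested). Ribosomal libraries (9098 genes) and total libraries (12860 genes) were fitted apart, and all 56 together for ribosomal against total (12546 genes). DESeq2 1.42.0, limma-voom (limma 3.58.1), other scalings, no filter, a mitochondrial covariate and libraries left out were alternatives. The fits were tested on simulated counts. Ratios used a pseudocount of 0.5 and exact permutation tests. P-values measure the spread between mice where 1 RNA type was fitted. In the fit of all 56 they measure the spread between libraries, since the libraries of a mouse were treated as separate. The mouse was a block only in an alternative.

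Numbers were taken to pair the libraries, since per the labels 56 libraries came from 28 mice. The titles give each sex and number once for ribosome-bound and once for total RNA, except for male knockout 13 in total RNA. That library was named from its description. Deviations from the group means over 500 genes correlated at 0.065 in female controls, -0.145 in male controls, 0.154 in female knockouts and 0.052 in male knockouts.

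The 9 genes and the gene lists were chosen with earlier results of these data known. All 9 are named, with up to 3 called genes of lowest p in each list and comparison, and for each of the 9 the pair of genes, at 10 CPM or more, whose centred group means of log2 CPM differed least. Promoters came from RefSeq and transcript ends from a GENCODE annotation, of builds other than that of the counts. Symbols were matched for 52029 gene IDs. Some genes that the naming rule picks are not reported here.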

Additional observations from a re-analysis of the deposited data

Results flagged for a closer look

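In 10 of 72 groups of 7 libraries 1 library stood apart from the other 6, its gap to the nearest as a share of the group's range being above Dixon's critical value, where chance flags about 1 in 20 groups. Male control 20 in ribosome-bound RNA was high for Ryr1 (1830 CPM, group median 983.3), Trdn (6482 CPM, median 2720) and Scn4a (69.13 CPM, median 38.0), and it is 1 of the 7 shallow libraries. Stac3 was at 330.0 CPM in ribosomal female control 19, also shallow (median 236.2). Jph1 was at 1365 CPM in ribosomal male control 21 (median 1061).

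In total RNA female control 14 was high for Ryr1 (1097 CPM, median 708.9) and Jph1 (722.6 CPM, median 537.5), female knockout 9 for Ryr1 (999.8 CPM, median 697.7) and male control 26 for Trdn (4576 CPM, median 2507). These 3 libraries have over 19% of reads outside genes. Clcn1 was at 144.0 CPM in male knockout 2 (median 106.7), which is not among them.

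The knockout effect in ribosome-bound RNA differed between males and females for Jph2 by -0.895 and for Clcn1 by -0.694 on the log2 scale, by edgeR's interaction term.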

How the results depend on the processing

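The sex difference in the ribosomal knockout effect of Jph2 kept its direction and call in all 34 alternatives, and that of Clcn1 in 32, being -0.41 (adjusted p = 0.263) with library totals and -0.62 (adjusted p = 0.0965) without a filter. The mitochondrial covariate and limma-voom were not among the 34, as they were run only for knockout against control in each sex. The causes of the changes below were not tested. With the mouse as a replicate block the 1 call to change was that of Cacna1s in female knockouts, ribosomal against total (0.275). Depth limits Scn4a most, with as few as 8 counts in a library.

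The count of the 9 called in female ribosome-bound RNA was 0 with library totals and 1 without a filter, with all 56 libraries in 1 fit, with the mitochondrial covariate (Cacna1s) and with its 14 libraries alone. In male ribosome-bound RNA it was 0 with library totals, 1 without a filter and 4 by limma-voom. For the ribosomal sex difference it was 1 with library totals and 1 without a filter. For male against female controls in total RNA it was 1 with library totals, without a filter, by DESeq2 and in the fit of all 56, and 3 without the libraries over 19% outside genes. DESeq2 called 2 in male total RNA, and in male knockouts, ribosomal against total, RLE factors, library totals and DESeq2 called 5. With 1 library left out at a time the counts were 1 to 4 in female and 0 to 2 in male ribosome-bound RNA, 1 to 2 in male total RNA and 0 to 1 for controls in total RNA.

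Signs turned as follows, on the log2 scale. For ribosomal against total, library totals gave -0.395 for Cacna1s and -0.388 for Clcn1 in female knockouts, -0.434 for Cacna1s and -0.031 for Trdn in female controls, -0.064 for Cacna1s and -0.246 for Trdn in male knockouts, and -0.224 for Cacna1s, -0.01 for Ryr1, -0.274 for Trdn and -0.354 for Clcn1 in male controls. RLE factors and DESeq2 both gave -0.096 for Cacna1s in female controls, -0.064 for Trdn in male knockouts and -0.016 for Cacna1s in male controls, and -0.14 and -0.141 for Clcn1 in male controls. Library totals also gave -0.109 for Cacnb1 in female ribosome-bound RNA, 0.074 for Stac3 and 0.229 for Jph1 in the ribosomal sex difference, 0.123 for Cacna1s and 0.003 for Stac3 between ribosomal controls, and 0.028 for Trdn in the male effect, ribosomal minus total.

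Without a filter Cacna1s was at -0.019 in male ribosome-bound RNA and 0.012 between ribosomal controls, and Jph1 at 0.035 in the sex difference. With all 56 libraries in 1 fit the same 3 values were -0.008, 0.001 and 0.011. Limma-voom gave 0.034 for Stac3 in female and -0.023 for Cacna1s in male ribosome-bound RNA, 0.027 for Jph1 in female and 0.007 for Cacna1s in male total RNA. The covariate gave -0.077 for Cacnb1, -0.055 for Ryr1 and -0.424 for Trdn in female ribosome-bound RNA, and its 14 libraries alone 0.012 for Stac3. Without the shallow libraries Trdn was at -0.005 in male controls, ribosomal against total, and 0.181 in the male effect, ribosomal minus total, and Cacna1s at -0.019 in male ribosome-bound RNA and 0.007 between controls.

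Without the total libraries over 19% outside genes Jph1 and Jph2 were at 0.064 and 0.04 in female total RNA. In male total RNA Cacna1s was at 0.148, Ryr1 at 0.132, Trdn at 0.03, Jph1 at 0.082 and Jph2 at 0.065, and the ratios of Stac3 to Cacna1s at -0.302, Trdn to Ryr1 at -0.103 and Clcn1 to Scn4a at -0.868, the last no longer called. The sex difference in total RNA was 0.116 for Cacna1s, 0.035 for Cacnb1, 0.175 for Ryr1, 0.113 for Trdn, 0.018 for Jph1 and 0.025 for Jph2, and between controls Ryr1 was at -0.368, Trdn at -0.172 and Jph1 at -0.051.

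With 1 library left out at a time the sign was not fixed for Cacna1s in male ribosome-bound RNA (-0.049 to 0.064), female total RNA (-0.042 to 0.113) and between ribosomal controls (-0.058 to 0.037), or for Stac3 (-0.092 to 0.056) and Trdn (-0.039 to 0.333) in female ribosome-bound RNA and Ryr1 in male ribosome-bound RNA (-0.249 to 0). It was not fixed for Jph1 in the ribosomal sex difference (-0.074 to 0.043), for Jph1 (-0.051 to 0.059), Jph2 (-0.091 to 0.044), Ryr1 (-0.157 to 0.064) and Scn4a (-0.055 to 0.177) in female total RNA, or for Cacnb1 (-0.124 to 0.027), Jph1 (-0.014 to 0.121), Ryr1 (-0.218 to 0.127) and Trdn (-0.082 to 0.161) between controls in total RNA.

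Counts over all genes that moved by over 1.5 times were as follows. Female ribosome-bound RNA had 1533 calls, against 2508 in the fit of all 56, 600 with the covariate and 936 with its 14 libraries alone. Male ribosome-bound RNA had 815, against 430 with library totals, 1256 in the fit of all 56, 1749 by limma-voom and 538 without male knockout 14. Male total RNA had 1824, against 645 without the libraries over 19% outside genes, 1214 without male knockout 14, 1167 without male control 26 and 1134 without male control 27. The ribosomal sex difference had 312, against 626 without a filter, 829 in the fit of all 56, and 175, 138, 483, 498, 181 and 169 without female controls 14, 15, 18 and 19 and male knockouts 13 and 14. Ribosomal controls had 694 between the sexes, against 356 with library totals, 1135 in the fit of all 56, 1067 without female control 15 and 1289 without male control 20. The effect in ribosomal minus total RNA had 434 in females, against 261 with the replicate block, and 16 in males, against 3 with library totals, 53 without a filter, 45 by DESeq2 and 27 without the shallow libraries. The sex difference in total RNA had 0, against 4 without a filter, 8 by DESeq2, 3 without the libraries over 19% outside genes and 1 in the fit of all 56.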
